A study of Mus musculus with 20 samples.

Results

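Hprt, the targeted gene of the study, was described together with 9 other genes of purine salvage and breakdown in differentiating mouse embryonic stem cells. The 10 genes were Hprt, Aprt, Adk, Ada, Gda, Xdh, Nt5e, Nt5c2, Ampd2 and Ampd3, taken by gene symbol as a set of known enzymes from the 37561 genes that all tables shared. Of these 10, 9 passed a filter on low levels and were tested among 13524 genes; Xdh did not pass, and its values are given without a test. The cells were ESD3 embryonic stem cells of mouse strain 129s2/SvPas, kept on embryonic fibroblast feeder cells. Both lines had been transduced with a lentiviral vector and selected with puromycin. The control line expressed a short hairpin RNA against luciferase, and the HPRT knockdown line expressed one directed at HPRT, designed on the human gene. Spherical neural masses, a neural precursor stage, were grown toward dopaminergic neurons, and RNA was sequenced on 10 days, daily from day 0 to day 4 and every other day from day 6 to day 14. There was 1 library per line and day, made from RNA pooled within the time point, and no repeat derivation of either line was described. Days therefore stood in for replicates, p-values measure the spread between days of 1 pair of lines, and the hairpin could not be told apart from any other difference between the 2 lines.

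Cells make purine nucleotides from small precursors or recover them from free bases and nucleosides. HPRT returns hypoxanthine and guanine to the nucleotides IMP and GMP with the sugar donor PRPP. Aprt does the same for adenine, and Adk adds a phosphate to adenosine. Breakdown runs the other way. AMP deaminases turn AMP into IMP, 5'-nucleotidases remove the phosphate, Ada converts adenosine to inosine, Gda converts guanine to xanthine, and Xdh oxidises hypoxanthine and xanthine to uric acid. Loss of HPRT in people causes Lesch-Nyhan disease, with overproduction of uric acid and a deficit of dopamine in the basal ganglia.

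The 100 bases before the start site are shown for Hprt and for the 4 genes whose ratio between the lines rose with the day of differentiation (below). They are RefSeq sequence of build GRCm38.p6, read 5′ to 3′ on the strand of the gene, with each GC box (GGGCGG or, on the other strand, CCGCCC) in capitals. Neighbouring GC boxes of Nt5e overlap by 1 base.
Hprt, chrX:52987978-52988077, plus strand: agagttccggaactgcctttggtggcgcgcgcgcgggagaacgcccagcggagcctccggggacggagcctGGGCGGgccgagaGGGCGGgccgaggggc
Aprt, chr8:122576908-122577007, minus strand: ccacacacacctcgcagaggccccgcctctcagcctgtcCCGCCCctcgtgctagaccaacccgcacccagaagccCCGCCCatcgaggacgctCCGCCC
Adk, chr14:21052474-21052573, plus strand: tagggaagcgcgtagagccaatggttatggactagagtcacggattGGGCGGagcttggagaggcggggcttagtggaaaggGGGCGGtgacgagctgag
Ada, chr2:163750240-163750339, minus strand: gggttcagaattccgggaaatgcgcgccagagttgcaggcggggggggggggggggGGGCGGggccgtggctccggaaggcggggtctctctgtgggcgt
Nt5e, chr9:88327509-88327608, plus strand: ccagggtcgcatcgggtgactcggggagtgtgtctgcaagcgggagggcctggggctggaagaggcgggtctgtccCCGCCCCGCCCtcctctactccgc
Sequence was given for 9 of the 10 genes, each taken at its first listed start site. Adk and Ampd2 had 2 listed start sites, Ampd3 had 3 and Nt5c2 had 7. At least 1 GC box lay in this window in 6 of the 9, the sixth being Ampd2. Gda, Nt5c2 and Ampd3 had none there. The share was 24.7% over all 32851 start sites of the table, which can hold several per gene. A TATA box (TATAAA or TTTATA) lay in none of the 9 and in 5.56% of the table. These are matches of letters and not measured binding sites.

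The deposited tables hold log2 ratios between pairs of libraries, each normalized within its table, so a value below is a log2 ratio of the HPRT knockdown over the control of the same day unless stated otherwise. Read counts were recovered from the rounding of these values for 6 of the 10 genes, namely Hprt, Ada, Gda, Xdh, Nt5e and Ampd3. Size factors of the 20 libraries ranged from 0.804 to 1.55, and the knockdown library had from 0.582 times the factor of its control on day 3 to 1.38 times on day 0. Tests left out day 6, which the study had dropped from its pathway analysis because it looked discrepant, and used the other 9 days. Marker genes of microglia and macrophages were under the level filter in all 6 cases, Csf1r among them. The dopamine transporter Slc6a3 was under it as well, 6 of 8 dopaminergic neuron markers being tested, and Afp was under it among the endoderm markers.

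Hprt was far lower in the knockdown line on every day. Hprt (Gene ID 15452, 9 exons on the plus strand, chromosome X, 50341314 to 50374836 in build NCBIM37, as for the genes that follow) had 535 to 1407 reads in the control libraries of the 9 days tested, with a median of 771. In the knockdown libraries it had 19.2 to 198 reads, with a median of 34. The groups did not overlap. The per-day ratio had its minimum of -5.00 at day 14 and its maximum of -2.53 at day 0, the median being -4.21, and was below 0 on 9 of 9 days. The mean was -4.002 ± 0.89 (SD, n = 9 days), which is 6.24% of the control (limma adjusted p 1.29e-05; exact sign-flip permutation test p = 0.00390625, two-sided, the smallest that 9 days allow). Hprt had the 34th lowest mean ratio of the 13524 genes tested. Counting of reads alone would give the log2 ratio of a day an SD of 0.115 to 0.333, which is below the SD of 0.89 over days.

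The course of Hprt was uneven in the knockdown line. Its reads were 198 on day 0 and 133 on day 1, a normalized step of -0.04, then 35.9 on day 2 and 19.8 on day 4. The table of days 1 and 2 of the knockdown line gave a step of -1.63, beside -0.38 in the control line. On day 6 the knockdown library had 63 reads, with a step of 1.45 into that day and of -1.27 out of it, where the control line moved by -0.10 and -0.22. By day 14 the knockdown line had 19.2 reads, and joined tables put it at -2.81 relative to its day 0, against -0.25 in the control line. The slope of the ratio on day was -0.10 per day (SE 0.047) and did not pass (limma adjusted p 0.172).

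**Figure D1:**
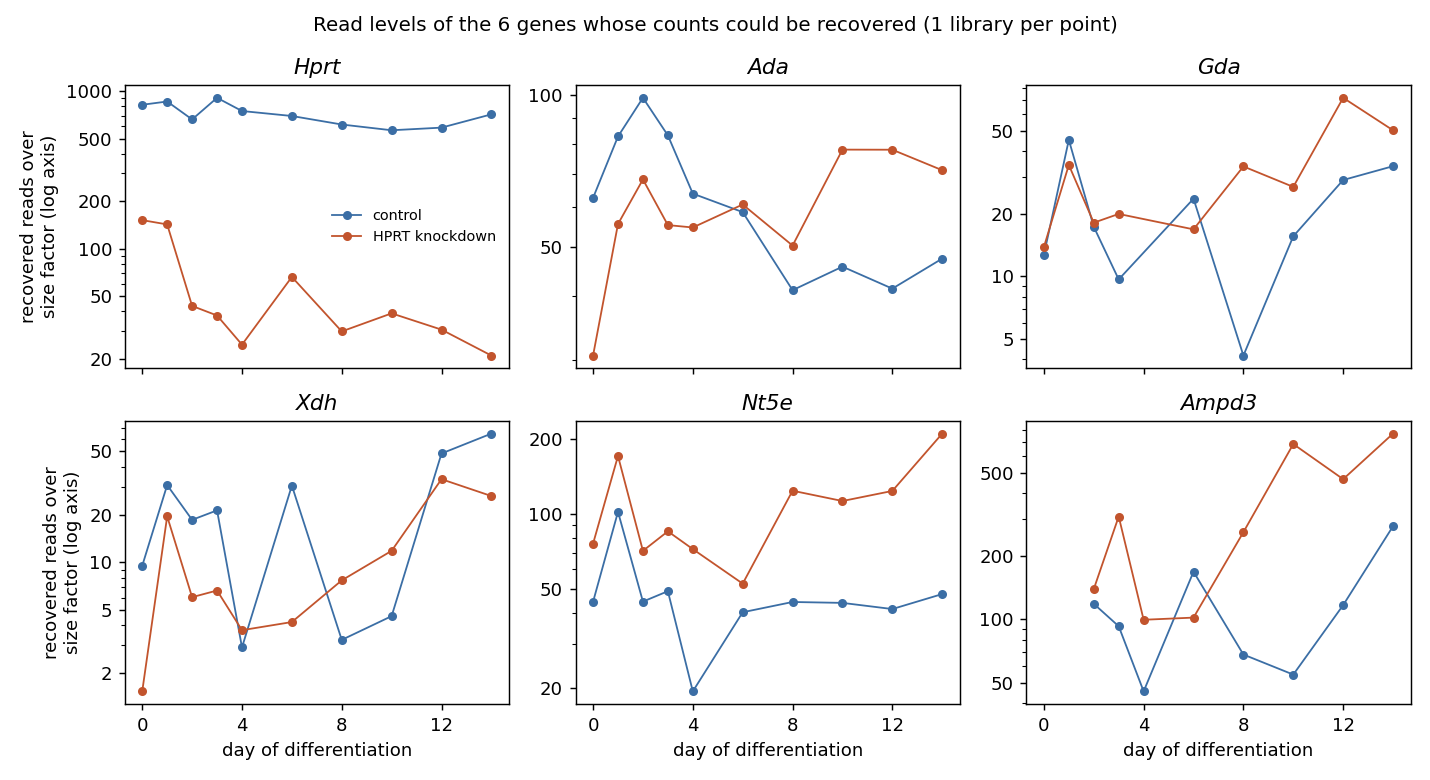
Recovered reads divided by the size factor of the library (vertical, log axis, one scale per panel) by day (horizontal) for Hprt, Ada, Gda, Xdh, Nt5e and Ampd3, with 1 library per point. The lines stay apart for Hprt, with 535 to 1407 reads against 19.2 to 198 on the 9 days tested, and cross for Ada; Gda lacks day 4, and Ampd3 lacks days 0 and 1, where tables disagreed or a library was at the floor.

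For the 2 other salvage members, Aprt and Adk, the mean ratio did not pass the test, and the ratios of days 0 to 4 were all negative. Aprt (Gene ID 11821, chromosome 8, 125098537 to 125100807, minus strand), the adenine counterpart of HPRT, had its lowest ratio, -1.06, on day 0 and its highest, 0.34, on day 12, with a median of -0.42. The knockdown had the lower level on 6 of 9 days, among them all of days 0 to 4. The mean over days 0 to 4 was -0.72 ± 0.30 (SD, n = 5 days) and that over days 8 to 14 was 0.12 ± 0.27 (SD, n = 4 days). Over the 9 days the mean of -0.35 ± 0.52 did not pass (limma adjusted p 0.0949). Without day 10 or day 12 it passed, at -0.43 each time (limma adjusted p 0.0489 and 0.0477).

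Adk (Gene ID 11534, chromosome 14, 21871855 to 22267769, plus strand), adenosine kinase, had its lowest ratio on day 1, at -1.46, and its highest on day 14, at 0.57, around a median of -0.65. The knockdown was below the control on 7 of 9 days. Its mean was -0.97 ± 0.31 (SD, n = 5 days) over days 0 to 4 and 0.16 ± 0.37 (SD, n = 4 days) over days 8 to 14. The mean over all 9 days was -0.47 ± 0.68, which did not pass (limma adjusted p 0.0815). It passed without day 10, at -0.57, and without day 14, at -0.59 (limma adjusted p 0.0452 and 0.0282). On day 6 the ratio of Adk was 0.96, above each of the other 9 days, and the step into day 6 was 1.14 in the knockdown line and -0.68 in the control line. The step out of it was -1.37 in the knockdown line and -0.06 in the control line.

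Of the enzymes that break purines down, Ada crossed from lower to higher in the knockdown line. Ada (Gene ID 11486, chromosome 2, 163552320 to 163575975, minus strand), adenosine deaminase, had 38.1 to 129 reads in the control libraries, with a median of 59.3. It had 39.8 to 72.7 in the knockdown libraries, with a median of 52.4, so that the groups overlapped. Its ratio began at -1.13 (day 0) and -0.69 (day 1) and had reached -0.24 by day 4. From day 8 it stood at 0.28, 0.84, 0.96 and 0.66 over the 4 later days, so that all of days 0 to 4 lay below 0 and all of days 8 to 14 above it. The mean over 9 days, -0.04 ± 0.75 (SD), therefore hid opposite signs and did not pass (limma adjusted p 0.887).

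Gda and Xdh were sparse in both lines. Gda (Gene ID 14544, chromosome 19, 21465797 to 21547935, minus strand), guanine deaminase, had 3.86 to 50 reads in the control and 15 to 58 in the knockdown on 8 of the days tested. On day 4 the knockdown library lay at or below 1 normalized count, which makes the ratio of -2.41 on that day a value at the floor. Its ratios ran up to 3.00 on day 8, where the control library had 3.86 reads. The mean of 0.46 ± 1.47 (SD, n = 9 days), higher on 7 of 9 days, did not pass (limma adjusted p 0.399). Xdh (Gene ID 22436, chromosome 17, 74233248 to 74299522, minus strand), xanthine dehydrogenase, had 3 to 73 reads in the control libraries, with a median of 15, and 2 to 27 in the knockdown libraries, with a median of 8. Its ratio ran from -2.72 on day 0 to 1.44 on day 10, and the mean was -0.60 ± 1.39 (SD, n = 9 days), lower on 6 of 9 days. Counting alone would give the ratio of a day an SD of 0.333 to 1.18 for Xdh and 0.304 to 0.774 for Gda. In both lines the highest Xdh counts on the days tested were those of days 12 and 14, at 62 and 73 reads in the control and at 27 and 24 in the knockdown.

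Of the 2 nucleotidases, Nt5e was higher in the knockdown line and Nt5c2 did not pass the test. Nt5e (Gene ID 23959, chromosome 9, 88222447 to 88266927, plus strand) encodes CD73, the surface enzyme that frees adenosine from extracellular AMP. It had 20 to 113 reads in the control libraries, with a median of 48, and 58.1 to 193 in the knockdown libraries, with a median of 100 reads. The counts of the groups overlapped, but within each day the knockdown was higher, on 9 of 9 days. Day 1 gave the lowest ratio, 0.63, and day 14 the highest, 2.23, around a median of 1.43. The mean was 1.28 ± 0.58 (SD, n = 9 days), or 2.42-fold (limma adjusted p 0.000388; exact sign-flip permutation p = 0.00390625). On day 6 the ratio was 0.35. In both lines Nt5e stepped up into day 1, by 1.20 in the control and 1.22 in the knockdown, and back by day 2, with steps of -1.20 and -1.18. Nt5e is also found on mesenchymal cells. Of 6 fibroblast markers 2 were lower in the knockdown and none higher, with mean ratios from -1.07 to 0.18. Of 6 endothelial markers 3 were lower and none higher, from -1.70 to 0.58. Among all genes tested 26.4% were higher and 26.5% lower. Astrocyte markers were higher in 5 of 6 cases and lower in 1. Of 6 oligodendrocyte markers 1 was higher and none lower, and the ratio rose with day for 5. Counts of the other marker lists are given further below. The part of any of these cell types in the Nt5e values was not tested. In pooled RNA a change in the number of cells of a type and in the RNA of each cell cannot be told apart.

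Nt5c2 (Gene ID 76952, chromosome 19, 46961321 to 47089643, minus strand), the cytosolic nucleotidase that acts on IMP and GMP, had its highest ratio, 0.33, on day 4 and its lowest, -1.53, on day 14, the median being -0.44. The ratio was negative on 7 of 9 days. The mean of -0.39 ± 0.54 (SD, n = 9 days) did not pass (limma adjusted p 0.0760), and it passed without day 0, at -0.47, or without day 4, at -0.48 (limma adjusted p 0.0441 and 0.0393). Without the pairing by day it passed too (limma adjusted p 0.0369). Nt5c2 shares exon bases with Ina, a neuronal filament gene on the other strand, and strand was not used in counting, so reads of the 2 genes could not be told apart there.

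Of the AMP deaminase genes, Ampd2 and Ampd3 were higher in the knockdown line. A further one, Ampd1, is no member and lay under the level filter; its untested mean ratio was -2.63 ± 2.43 (SD, n = 9 days), lower on 7 days and higher on 0. Ampd2 (Gene ID 109674, chromosome 3, 107876980 to 107889569, minus strand) differed by a small and even amount. The lowest ratio was -0.01 (day 3), the median 0.28 and the highest 0.45 (day 1), and the ratio was above 0 on 8 of 9 days. The mean was 0.27 ± 0.16 (SD, n = 9 days), or 1.21-fold (limma adjusted p 0.00777; exact sign-flip permutation p = 0.0078125). Without the pairing by day the mean of 0.27 did not pass (limma adjusted p 0.0695).

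Ampd3 (Gene ID 11717, chromosome 7, 117911720 to 117955919, plus strand) differed more and less evenly. It had 46.8 to 313 reads in the control libraries of the 7 days from 2 to 14 that were tested, and 80.0 to 703 in the knockdown libraries. The groups overlapped across days, with the knockdown higher within each. The ratio was lowest on day 2, at 0.27, and highest on day 10, at 3.72, where the knockdown library had 636 reads and the control library 59.6. The mean was 1.48 ± 1.08 (SD, n = 9 days), or 2.78-fold (limma adjusted p 0.00390; exact sign-flip permutation p = 0.00390625). Day 6 went the other way, at -0.75, with 97 reads in the knockdown and 171 in the control. The mean with day 6 was 1.25 (limma adjusted p 0.0151). Tables with the libraries of days 0 to 2 disagreed for Ampd3, by up to 0.64, so the ratios of 0.55 on day 0 and 0.36 on day 1 depend on the table used. Ampd3 and Ampd2 also share exon bases with genes on the other strand.

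Counted over the members, 4 of the 9 tested differed between the lines, Hprt lower and Nt5e, Ampd2 and Ampd3 higher, where 52.9% of all genes tested were called. The same 4 members passed by the exact sign-flip permutation test after adjustment, where 49.5% of all genes did. The other 5, Aprt, Adk, Ada, Gda and Nt5c2, did not pass. The median of the absolute mean ratio was 0.46 for the 9 members and 0.36 for all genes. The ratio kept its sign on all 9 days for Hprt, Nt5e and Ampd3, and for 29.6% of all genes tested. For Ampd3 this tally, and with it the sign-flip p, rests on the same-day tables, since its ratios of days 0 and 1 were smaller than the disagreement between tables there.

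**Figure D2:**
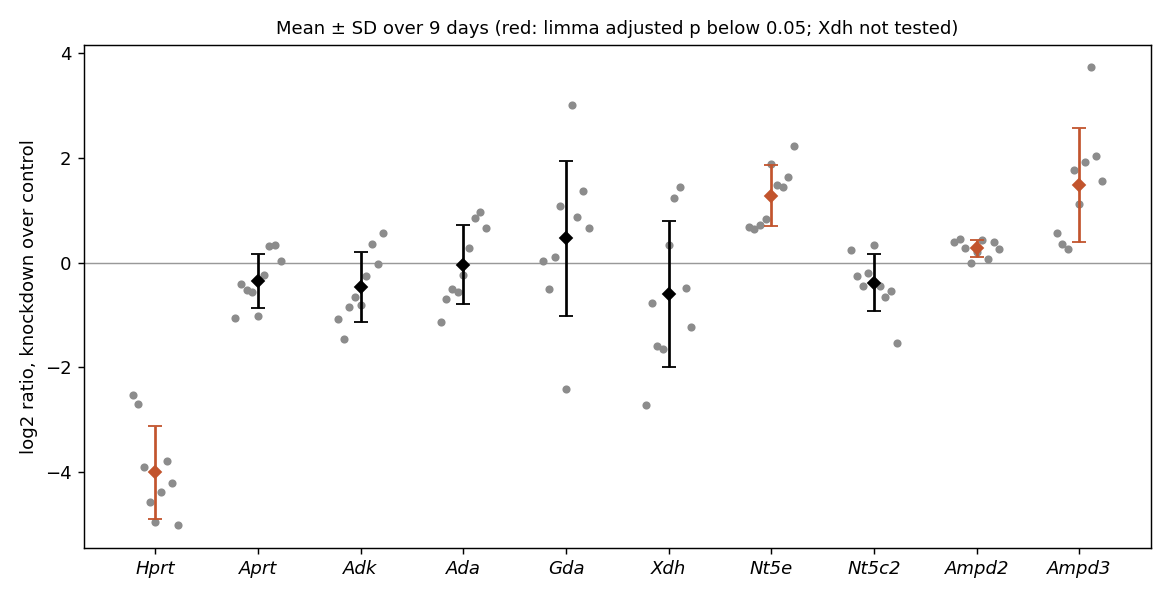
Log2 ratio of the knockdown over the control (vertical) for the 10 genes (horizontal). Grey points are the 9 days tested in time order, diamonds are means and bars are SDs over days; Hprt sits at -4.002 and stands apart, Nt5e, Ampd2 and Ampd3 lie above 0 in red, and the bars of the other genes cross 0.

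The ratio between the lines was also examined over time. The change of the log2 ratio per day, its slope, which tests whether the 2 lines moved apart or together, was called for 5 of the 9 members, 4 rising and 1 falling, beside 14.0% of all genes tested (7.32% rising and 6.67% falling). The ratio of Ada rose by 0.14 per day (SE 0.017; limma adjusted p 0.00418), and that of Adk by 0.12 per day (SE 0.017; limma adjusted p 0.00648). Both calls stood without any single day of the 9, and with day 6 included that of Ada stood (limma adjusted p 0.0046) while that of Adk did not (limma adjusted p 0.0531).

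The other 3 slopes were nearer to the threshold. The ratio of Aprt rose by 0.08 per day (SE 0.021; limma adjusted p 0.0329), and this call was lost without day 0, 3, 10, 12 or 14, with slopes between 0.07 and 0.10. The ratio of Nt5e rose by 0.09 per day (SE 0.023; limma adjusted p 0.0300), a call lost without day 0, 1, 2, 12 or 14, with slopes between 0.08 and 0.10, and lost with day 6 (limma adjusted p 0.0778). That of Nt5c2 fell by 0.08 per day (SE 0.024; limma adjusted p 0.0486), and of the 9 fits that left out 1 day it passed in that without day 2 alone, the slope being -0.05 without day 14. Slopes of 0.14 for Ampd3 (SE 0.053; limma adjusted p 0.101) and 0.13 for Gda (SE 0.086; limma adjusted p 0.341) were no smaller than that of Adk but did not pass. Marker lists moved on the same scale. The ratio rose with day for 5 of 6 oligodendrocyte markers and fell for 3 of 6 neuron markers, and their part in the slopes of the members was not tested.

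**Figure D3:**
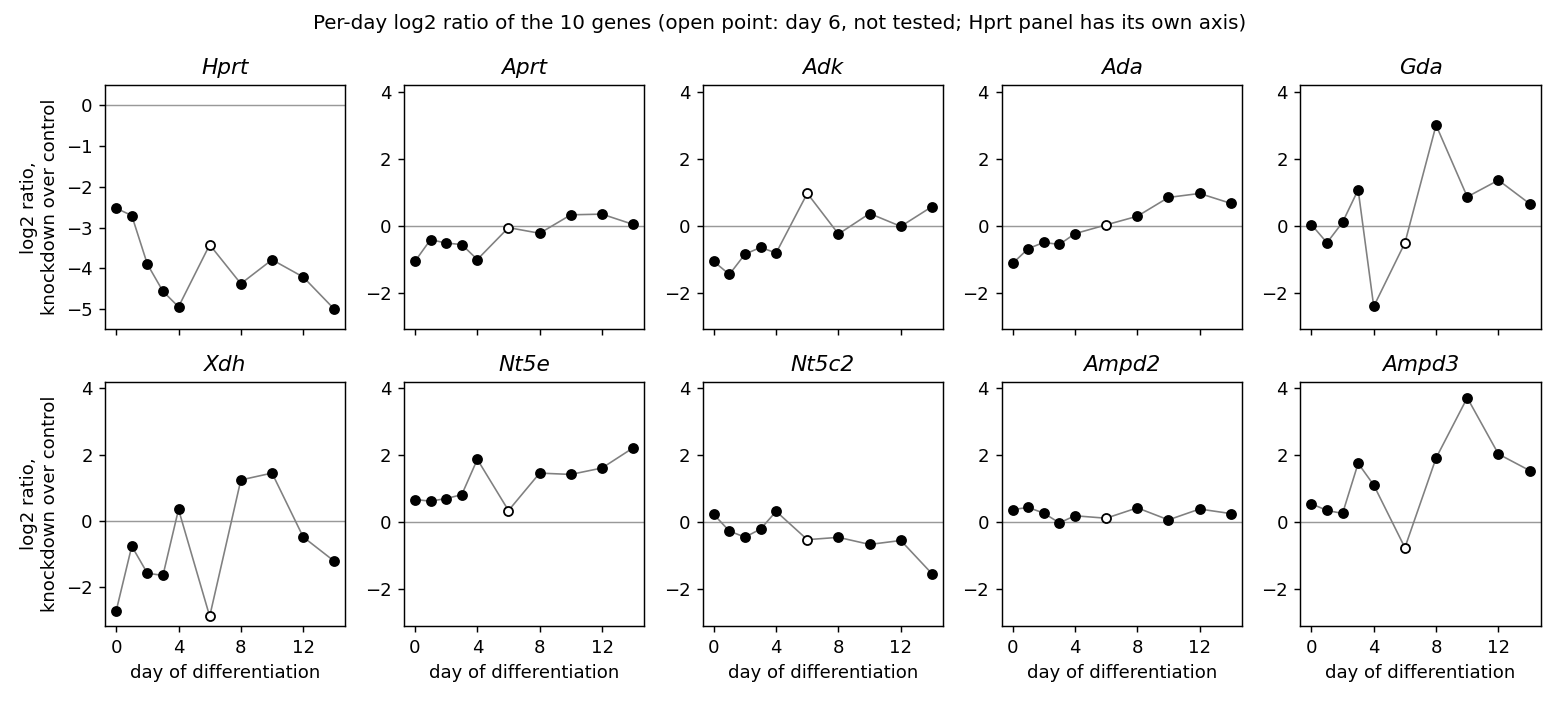
Log2 ratio of the knockdown over the control (vertical) on each of the 10 days (horizontal), 1 panel per gene, with the open point for day 6, which was not tested. Aprt, Adk and Ada lie below 0 on days 0 to 4, and Ada lies above 0 from day 8 on; Nt5e is above 0 throughout, and Hprt has an axis of its own.

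Within the lines, the slopes were read from tables of consecutive days added up. In the control line 5 of the 9 members changed with day, Aprt, Adk, Ada and Ampd2 falling and Nt5c2 rising, beside 43.2% of all genes tested (19.6% rising and 23.7% falling). In the knockdown line only Ampd3 did, beside 12.7% of all genes (7.31% rising and 5.35% falling). Adk in the control line changed by -0.11 per day (SE 0.016; limma adjusted p 0.00114) and stood at -1.42 on day 14 relative to day 0. In the knockdown line its slope was 0.01 per day (SE 0.018; limma adjusted p 0.748) and it stood at 0.19. Ada changed by -0.09 per day in the control (SE 0.020; limma adjusted p 0.00775) and ended at -0.52, while in the knockdown the slope was 0.05 (SE 0.024; limma adjusted p 0.172) and it ended at 1.27. Aprt had a slope of -0.06 per day in the control (SE 0.011; limma adjusted p 0.00302), ending at -0.62, and of 0.02 in the knockdown (SE 0.017; limma adjusted p 0.507), ending at 0.44. The step of Ada from day 0 to day 1 was 0.91 in the knockdown line and 0.40 in the control line.

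Nt5c2 rose in the control line, by 0.04 per day (SE 0.0083; limma adjusted p 0.00510), and ended at 0.65 relative to day 0. In the knockdown its slope was -0.05 (SE 0.021; limma adjusted p 0.141), ending at -1.18, of which the last step from day 12 to day 14 gave -0.83. Ampd3 in the knockdown rose by 0.18 per day (SE 0.038; limma adjusted p 0.0224), ending at 2.73, and this call was lost without day 2, 12 or 14. Its slope in the control line was 0.02 (SE 0.050; limma adjusted p 0.767). Hprt in the knockdown line had a slope of -0.15 (SE 0.045; limma adjusted p 0.0608) and in the control line of -0.04 (SE 0.014; limma adjusted p 0.0544), neither past the threshold. The slope of Hprt passed in the knockdown without day 4 (limma adjusted p 0.0416), and in the control without day 2 or day 14 (limma adjusted p 0.0392 and 0.0212) or with day 6 (limma adjusted p 0.0440). Filtered at a log2 count of 8 it passed in both lines (limma adjusted p 0.0448 in the knockdown, 0.0400 in the control). With tables joined by least squares it passed in the control (limma adjusted p 0.0395). In the knockdown the slope of Nt5e passed without day 1, at 0.09 (limma adjusted p 0.0218), and that of Ampd2 without day 0, at -0.05 (limma adjusted p 0.0475). Ampd2 in the control line had a slope of -0.03 (limma adjusted p 0.0474), a call that was lost without each day but day 0, the largest adjusted p being 0.159 without day 14. The deposited control table of days 3 and 4 disagreed with the other tables, by 0.00897 to 0.322 for the 10 genes. With that step taken through the knockdown tables the control line again had 5 calls, Hprt now among them (limma adjusted p 0.0465) and Ampd2 no longer (limma adjusted p 0.0629).

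**Figure D4:**
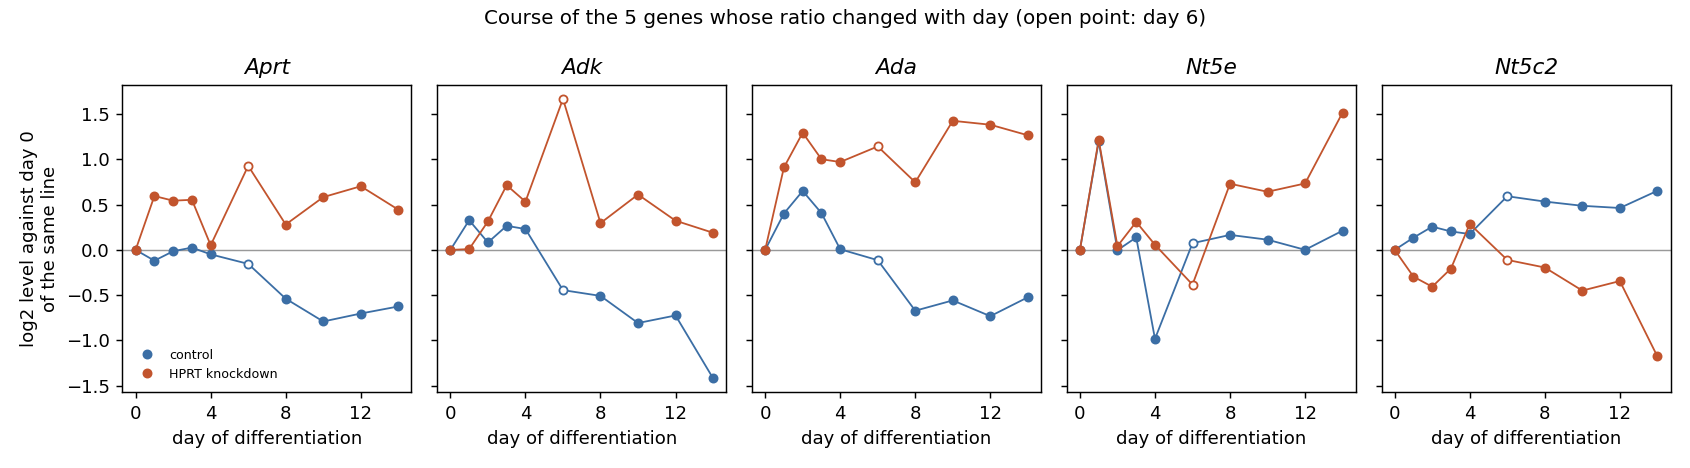
Log2 level relative to day 0 of the same line (vertical) by day (horizontal) for the 5 genes whose ratio changed with day, in the control and the knockdown line, from tables of consecutive days added up. Adk ends at -1.42 in the control and at 0.19 in the knockdown, Ada at -0.52 and 1.27, and Nt5c2 at 0.65 and -1.18; the open point is day 6.

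Levels of the 6 genes with recovered reads were set side by side as reads divided by the size factor and by the exon length in kilobases, over the 6 tested days that all of them share (days 2, 3, 8, 10, 12 and 14). A recovered count can be wrong by a constant factor for a gene, so the order between genes is less sure than the ratio between the lines. In the control line Hprt was the highest of the 6, at 523 ± 97.6 (SD, n = 6 days) such units. Below it came Ada at 29.8 ± 12.5, Ampd3 at 21.7 ± 14.4, Nt5e at 12.6 ± 0.759, Xdh at 5.72 ± 5.28 and Gda at 2.97 ± 1.84. Neighbours in this order from Ada to Gda overlapped in their range over days. In the knockdown line Ampd3 was at 78.0 ± 44.2, Nt5e at 33.9 ± 13.6, Ada at 33.4 ± 5.79 and Hprt at 26.0 ± 6.21. The ranges of those 4 overlapped, so no order among them is given. Gda at 5.99 ± 3.38 and Xdh at 3.26 ± 2.48 lay below those 4.

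The members were set beside a list of 57 genes of purine salvage, interconversion, breakdown and transport that contains them, of which 45 were tested. Of these 45, 28 differed between the lines, 11 higher and 17 lower in the knockdown, beside 52.9% of all genes tested (26.4% higher and 26.5% lower). The median of the mean ratio was -0.26 for the list and 0.01 for all genes. Substrates of the listed genes were not examined, so a gene in the list need not act on purines alone or chiefly. Without the members 24 of 36 were called, 8 higher and 16 lower. Among those 36 the slope of the ratio was called for Pnp2 alone, a purine nucleoside phosphorylase gene named here after its values were seen, at 0.11 per day (limma adjusted p 0.0357).

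Genes that supply PRPP or lead from IMP to GMP were lower or did not pass. Of 4 PRPP supply genes tested, 3 were lower and none higher, where 26.5% of all genes tested were lower and 26.4% higher. Prps1, a PRPP synthetase gene, had a mean of -1.10 ± 0.17 (SD, n = 9 days; limma adjusted p 1.13e-05), and the synthetase-associated Prpsap1 and Prpsap2 were at -0.33 ± 0.20 and -0.32 ± 0.23. All 3 genes of the step from IMP to GMP were lower. Gmps, GMP synthetase, was at -0.67 ± 0.25, Impdh2, an IMP dehydrogenase, at -0.62 ± 0.25, and Impdh1 at -0.34 ± 0.37. Among the salvage transferases and kinases 2 of 5 were lower and none higher, Hprt and Dguok, the mitochondrial deoxyguanosine kinase, at -0.49 ± 0.26.

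In the purine nucleotide cycle with GMP reductase 6 of 7 genes were called, 3 higher and 3 lower, beside 52.9% of all genes tested. Adsl, adenylosuccinate lyase, was at -1.01 ± 0.33 (SD, n = 9 days) and the synthetase Adssl1 at -1.06 ± 0.90, opposite in sign to Ampd3. Of the nucleotidases 2 of 6 were higher and none lower, Nt5e and the mitochondrial Nt5m at 0.38 ± 0.17. Among 6 genes of nucleoside and base breakdown that were tested, Aox1, an aldehyde oxidase, was higher at 0.79 ± 0.84, and Pnp, the purine nucleoside phosphorylase, was lower at -0.41 ± 0.43.

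In the list of extracellular nucleotide breakdown 6 of 7 genes were called, 4 higher and 2 lower, although Entpd5 of that list is known mainly as a nucleoside diphosphatase of the endoplasmic reticulum. Entpd5 and the surface enzyme Entpd2 were at 1.23 ± 0.21 and 1.12 ± 1.05 (SD, n = 9 days). Enpp3, a pyrophosphatase, was at -1.79 ± 1.38. Of 7 transporters 4 were called, 1 higher and 3 lower, beside 52.9% of all genes tested (26.4% higher and 26.5% lower). Slc28a1, a concentrative nucleoside transporter, was at -3.18 ± 1.74, the equilibrative transporter Slc29a1 at -0.64 ± 0.47, and Slc2a9, a urate transporter, at 1.22 ± 0.71. The p-values of these genes came from the same limma fit, and each gene named was below the adjusted threshold of 0.05. Markers of pluripotent cells were lower in the knockdown in 6 of 6 cases, with mean ratios from -3.43 to -1.06. Astrocyte markers were higher in 5 of 6 cases and lower in 1, from -0.66 to 3.63, and neuron markers were lower in 4 of 6, from -2.85 to 0.03. Of 6 markers each, 2 were higher and none lower for dopaminergic neurons (from -0.28 to 2.32), 2 higher and 1 lower for neural progenitors (from -1.36 to 0.91), and 1 higher and none lower for oligodendrocytes (from 0.41 to 3.02). Of 4 endoderm and epithelium markers tested 1 was higher and 3 lower, from -2.28 to 1.24. The part of these cell types in the values of the purine genes was not tested.

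**Figure D5:**
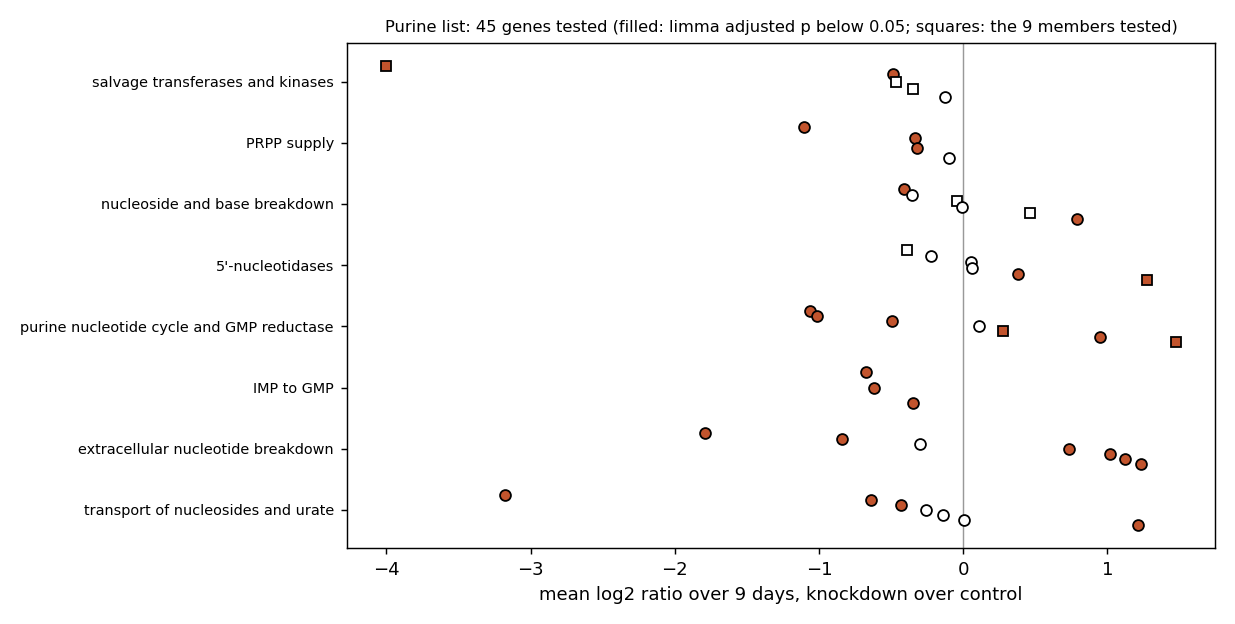
Mean log2 ratio over 9 days, knockdown over control (horizontal), of the 45 purine list genes tested, by group (vertical). Squares are the 9 members tested, and filled symbols passed the threshold, 17 to the left of 0 and 11 to the right; Hprt is at the far left, and the genes of the step from IMP to GMP all lie left of 0.

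Day 6 departed from the other days across the list. Of the 28 purine list genes called, 16 had a day 6 ratio opposite in sign to their mean, as did 56.5% of all genes called. Among the 4 members called this was the case for Ampd3 alone. Gene patterns nearest to that of Hprt were searched over the 10 per-day ratios of the 13524 genes, by Euclidean distance. The nearest was Col6a6, a collagen chain gene, at a distance of 1.89 and with a mean ratio of -3.99, followed by Cyp26b1 at 3.18, Calb2 at 3.79, Msx3 at 4.11 and Robo3 at 4.40.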

How the data were processed

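RNA of 20 libraries was sequenced with an unstranded kit for 50 cycles over 4 lanes of 5 libraries, the lane of each not being given in the sources used here. The authors converted reads with CASAVA 1.8.2, aligned them to mm9 and counted reads per gene. The 28 tables hold log2 values that the authors deposited for 2 libraries each, DESeq-normalized within the table and centred on the mean of the pair. Counts of 1 or less lie at a floor. No column of other samples was present.

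Per-day log2 ratios were taken from the 10 same-day tables, and courses in each line from 9 consecutive-day tables added up. Genes were kept at a typical log2 count of 4 or more, read from the rounding steps of the values. The mean ratio and its slope on day were fitted over 9 days with limma 3.58.1 in R 4.3.3, on all 13524 genes, p-values being adjusted by Benjamini-Hochberg and called below 0.05, and the mean also with an exact two-sided sign-flip permutation test. The scripts were tested on simulated data. Reads were recovered where values fell on steps of a read, partial reads included. A count recovered here can therefore be wrong by a constant factor for a gene, which leaves its ratios as they are but can shift its level against other genes. SDs said to come from counting alone cover counting error only, while those beside mean levels are spreads over days.

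Libraries of the same day were paired, as the labels give the day. Their deviations correlated at 0.142 to 0.426 on 8 days and at -0.0121 on day 0. The deposited control table of days 3 and 4 disagreed with the other tables, 0.0592% of genes closing within 1e-05 against 91.3% to 93.0% in the other 8 comparisons. The members and lists were chosen with earlier results of these data known. Named were the 10 members, up to 3 called genes of largest absolute mean ratio in each purine group, and the 5 genes nearest to Hprt. Marker lists covered neurons, dopaminergic neurons, neural progenitors, astrocytes, oligodendrocytes, pluripotent cells, fibroblasts, endothelium, microglia and macrophages, and endoderm. Alternatives were all 10 days, other filters, median centring, a log2 scale of day, joining tables by least squares, no pairing and leaving out each day.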

Additional observations from a re-analysis of the deposited data

Results flagged for a closer look

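For Nt5c2 the day 14 ratio of -1.53 lay apart from the other 9 days, the gap being 0.47 of the range and just past the 95% limit of Dixon's test. This was 1 of 10 genes examined, where chance alone marks about 1 group in 20. For 5 genes the slope on day differed between the lines by the limma test of the ratio itself. The difference, knockdown minus control, was 0.083 per day for Aprt, 0.124 for Adk, 0.140 for Ada, 0.095 for Nt5e and -0.083 for Nt5c2.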

How the results depend on the processing

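Without the pairing by day (no replicate block), the mean of Hprt was -4.00, 4 members were again called, Nt5c2 passed at -0.39 and Ampd2 did not at 0.27. The calls of Hprt, Nt5e and Ampd3 for the mean ratio stood under each alternative that tested them. Raising the filter to a log2 count of 8 left 5 members tested, of which 2 were called for the mean ratio and 3 for the slope of the ratio. With all 10 days the slope of the ratio was called for 2 members. With log2(day + 1) as the time scale 0 members were called for the slope in the knockdown line. Leaving out 1 day at a time gave a mean of Hprt from -4.19 to -3.88, 4 to 6 members called for the mean ratio, 2 to 4 for the slope of the ratio, 4 to 5 for the slope in the control line and 0 to 2 for that in the knockdown line. The slope count was 2 without day 0, 12 or 14 and 3 without day 1, 3 or 10. The knockdown count was 0 without day 2, 12 or 14 and 2 without day 0, 1 or 4. The cause was not tested.

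Signs turned only for values that did not pass in any of these fits. Leaving out single days moved the mean ratio of Ada from -0.167 to 0.0941, the slope of the ratio of Ampd2 from -0.0069 to 0.0036, the knockdown slope of Adk from -0.0016 to 0.024, and the control slopes of Gda from -0.026 to 0.086, of Nt5e from -0.022 to 0.024 and of Ampd3 from -0.061 to 0.044. With log2(day + 1) the control slopes were -0.032 for Gda and -0.048 for Ampd3. The step of the control line through the knockdown tables was added after seeing the data. Of the results recomputed without 1 day, 282 kept direction and side of the threshold, 29 fell short of it, 11 newly passed and 11 turned sign; under the other alternatives these were 193, 10, 6 and 2. Depth limits Gda and Xdh most.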
